A study of Mus musculus with 8 samples.

Results

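The baseline transcriptome described here is that of lineage-negative, CD127-positive (Lin- CD127+) cells sorted from wild-type mouse bone marrow. It rests on the 4 libraries labelled WT1, WT2, WT3 and WT4 of a series of 8, chosen by their titles and genotype label (Trerf1 +/+). The other 4 libraries carry a knockout of Trerf1 and are not compared here. The labels give tissue, sorted phenotype and genotype. Strain, age and the antibodies of the lineage cocktail are not given in the sources used here, nor whether each library is a separate animal, so the spread between them may be technical in part.

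CD127 is the interleukin 7 receptor alpha chain. In marrow it marks common lymphoid progenitors and the B-lineage cells that follow them, and also innate lymphoid cells (ILCs) and their precursors. Lineage depletion removes cells that carry surface antigens of mature blood cells. Lymphoid progenitors use FLT3 and interleukin 7 signals, open the V(D)J recombination machinery, and still hold the potential for B, T, innate lymphoid and plasmacytoid dendritic fates. Plasmacytoid dendritic cells are the marrow's strong producers of type I interferon and depend on the E protein TCF4.

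The deposited counts summed to 34541825 (WT1), 63498254 (WT2), 31109744 (WT3) and 73414626 (WT4). CPM, counts scaled to the size of the library, were adjusted by TMM, a method that aligns libraries on the bulk of their genes. Protein-coding genes took 97.3% to 97.5% of counts, mitochondrial genes 0.715% to 0.844% and ribosomal protein genes 3.23% to 3.92%. The libraries were of different sex-linked content, which the labels do not mention. Xist, the RNA that coats the inactive X chromosome, was at 530, 0.062, 0.609 and 576 CPM in WT1 to WT4. Eif2s3y, a Y-linked translation factor gene, was at 0, 140, 105 and 0 CPM, and Ddx3y, Kdm5d and Uty had the same pattern. A count of 0 allows up to 0.0869 CPM in WT1 and 0.0438 CPM in WT4 (3 counts, counting error only). The counts summed to 3.68 to 3.81 times the totals of the RSEM estimates, a second deposited quantification of the same libraries. If 1 fragment gave more than 1 count these limits would be higher, which was not tested. WT1 and WT4 thus had Xist and no more than traces of Y transcripts, and WT2 and WT3 the reverse, so the 4 libraries did not come from 1 animal. Whether WT1 and WT4, or WT2 and WT3, share an animal is not known.

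Of 53647 gene identifiers, 13246 (24.7%) had a mean of at least 1 CPM, 9075 (16.9%) at least 10 CPM and 2557 (4.77%) at least 100 CPM. Among 21878 protein-coding genes the shares were 52.6%, 40.3% and 11.6%, and the counts 11515, 8811 and 2538. The 40.3% is the background against which members of each gene list at 10 CPM or more are read below, since nearly all list members are protein-coding. The 10 most abundant genes held 3.80% of all CPM, the first 100 held 16.9% and the first 1000 held 48.8%. No small group of transcripts dominated the libraries.

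Levels of different genes are compared as mean CPM per kilobase of annotated gene length. On that scale Ly6d, a surface protein of B-biased lymphoid progenitors, was the first of all genes. Its level was 4723 CPM per kilobase, ahead of B2m (the light chain of MHC class I) at 3256 and Actb (cytoplasmic actin) at 2538. Ly6d (ENSMUSG00000034634.8) lies on chromosome 15 at 74633905 to 74635469, in the coordinates of the count files, taken as GRCm39. Next among protein-coding genes outside the mitochondrial and ribosomal protein genes came Psap, the precursor of the lysosomal saposins, at 1869. Then followed Ptma, Tmsb4x, Eef1a1, H2-D1, Gpx1 and Lgals1, between 1529 and 1068. These are mostly genes that many cell types use.

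The next 15 genes held several with narrower use. Bst2, the tetherin antigen used to identify plasmacytoid dendritic cells in the mouse, was at 880 CPM per kilobase. Cox6a2, a cytochrome oxidase subunit known from muscle and plasmacytoid dendritic cells, was at 856. Dntt, the terminal transferase that adds bases at V(D)J junctions, was at 803, and Cd74, the invariant chain of MHC class II, at 685. Tyrobp, an adaptor of activating receptors in myeloid and innate lymphoid cells, was at 900, and Plac8 at 923. The others of these 15 were H3f3b, Ubb, Tmsb10, Pfn1, Ftl1, Eif5a, Calm2, Slc25a5 and Ly6e. Ighm, the constant region of the immunoglobulin mu chain, is typed apart from protein-coding genes and was at 1843 CPM per kilobase. One identifier without a symbol, ENSMUSG00000119584.1 (chromosome 17, 40157244 to 40159092), stood at 1407 CPM per kilobase, with 1715, 4130, 1973 and 2588 CPM in WT1 to WT4. It was highest in WT2.

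**Figure D1:**
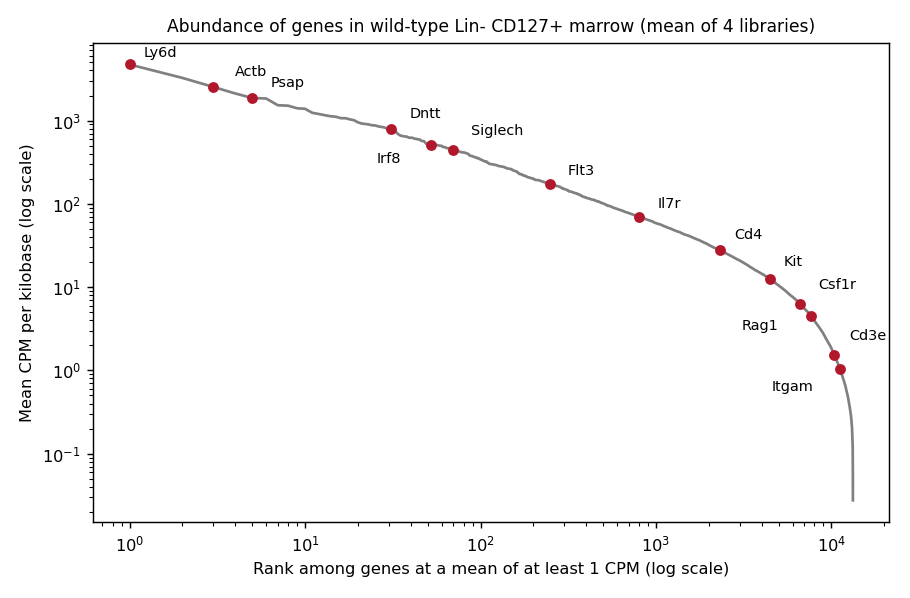
Mean CPM per kilobase (vertical, log scale) against rank (horizontal, log scale) for the 13246 genes at a mean of at least 1 CPM in the 4 wild-type libraries, with 14 genes marked. Ly6d is first at 4723, Dntt (803) and Irf8 (515) sit within the first 100, and the T and myeloid surface genes Cd3e and Itgam lie near the lower end of the curve.

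The 5 genes taken as markers of the sorted cells were read out in every library. Of these only Il7r encodes an antigen that the sort is labelled by. Ly6d was at 2853, 3060, 3852 and 4290 CPM in WT1 to WT4, with a mean of 3514 ± 673 CPM (SD, n = 4, as for all means below). Irf8, an interferon regulatory factor that dendritic and B-lineage development needs, was at 3430, 3142, 3066 and 4907 CPM. Its mean was 3636 ± 861 CPM, or 515 per kilobase. WT4 held the highest value of both genes, and the other 3 libraries lay close together for Irf8.

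Flt3, the receptor for FLT3 ligand on early progenitors, was at 1174, 1274, 928 and 931 CPM. Il7r, the gene of the antigen used for sorting, was at 268, 310, 371 and 356 CPM, a mean of 327 ± 46.7 CPM. Both moved by less than 1.5-fold between the lowest and highest library. Per kilobase Il7r (70.0) stood well under Flt3 (174), so the antigen of the sort was not among the leading transcripts.

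Dntt was the least even of the 5 markers. It was at 1732, 2414, 2339 and 872 CPM, with WT4 lowest. The range on the log2 CPM scale was 1.47 for Dntt, against 0.46 to 0.68 for the other 4. The order per kilobase was Ly6d, Dntt, Irf8, Flt3 and Il7r. The ranges over libraries of Dntt and Irf8 per kilobase overlap, and those of the other neighbours do not.

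Promoter sequences of 5 genes on which the account turns are given from RefSeq, build GRCm38.p6, 250 bases before to 50 bases after the annotated start, 5′ to 3′ on the gene's strand. Rhag, Ermap and Klf1 are the first 3 erythroid genes by variation between libraries, at a mean of at least 10 CPM, that have an entry. Rhag and Ermap encode red-cell membrane proteins, and Klf1 an erythroid transcription factor. Capitals mark TTATCA, which reads TGATAA on the other strand, a form of the site that GATA factors bind. Rhag lies at chr17:40810899-40811198 (plus strand), Ermap at chr4:119189946-119190245 (minus strand) and Klf1 at chr8:84901732-84902031 (plus strand).
Rhag: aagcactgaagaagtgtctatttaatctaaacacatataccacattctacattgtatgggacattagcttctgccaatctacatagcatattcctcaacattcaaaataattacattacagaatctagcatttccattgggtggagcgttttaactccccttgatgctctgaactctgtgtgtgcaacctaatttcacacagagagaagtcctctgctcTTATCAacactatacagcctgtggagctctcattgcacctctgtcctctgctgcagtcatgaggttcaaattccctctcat
Ermap: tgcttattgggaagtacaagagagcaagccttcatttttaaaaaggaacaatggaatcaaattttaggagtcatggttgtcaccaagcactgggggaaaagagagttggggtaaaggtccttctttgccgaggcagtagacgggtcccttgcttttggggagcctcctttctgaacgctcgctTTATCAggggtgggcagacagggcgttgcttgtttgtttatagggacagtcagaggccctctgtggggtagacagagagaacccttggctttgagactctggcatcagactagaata
Klf1: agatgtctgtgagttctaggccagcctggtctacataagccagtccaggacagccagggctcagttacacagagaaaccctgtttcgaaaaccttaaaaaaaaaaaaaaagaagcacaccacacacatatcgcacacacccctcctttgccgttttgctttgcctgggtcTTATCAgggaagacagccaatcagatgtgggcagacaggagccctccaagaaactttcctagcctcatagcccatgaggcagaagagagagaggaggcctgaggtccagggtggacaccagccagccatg

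Dntt and Siglech stand for the lymphoid and the plasmacytoid dendritic side of the sort and were picked after their values were seen. Capitals mark CANNTG, the E-box that E proteins such as TCF3 and TCF4 bind. Dntt lies at chr19:41029025-41029324 and Siglech at chr7:55767934-55768233, both on the plus strand.
Dntt: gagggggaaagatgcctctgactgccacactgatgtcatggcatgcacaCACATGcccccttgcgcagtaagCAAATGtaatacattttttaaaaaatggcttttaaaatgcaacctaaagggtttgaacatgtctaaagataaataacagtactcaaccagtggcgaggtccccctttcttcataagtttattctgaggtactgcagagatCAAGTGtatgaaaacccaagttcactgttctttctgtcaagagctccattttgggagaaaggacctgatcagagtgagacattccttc
Siglech: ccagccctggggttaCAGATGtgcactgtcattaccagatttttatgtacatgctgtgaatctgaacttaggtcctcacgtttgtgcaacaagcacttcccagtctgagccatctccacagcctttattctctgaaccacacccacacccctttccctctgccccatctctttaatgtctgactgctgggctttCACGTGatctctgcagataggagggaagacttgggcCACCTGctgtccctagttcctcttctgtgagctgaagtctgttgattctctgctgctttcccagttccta

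In these windows the capitals begin 31, 67 and 80 bases before the start of Rhag, Ermap and Klf1. The 4 motifs searched on both strands were chosen with the values known. They were AGATAA and its variant TGATAA for GATA factors, CACCC for KLF1, and the E-box CANNTG. The first 2 share the letters GATAA and cannot start at the same base. Over 32851 RefSeq promoter windows of the same length, AGATAA was in 11.2%, TGATAA in 9.05%, either of them in 18.6%, CACCC in 57.5% and CANNTG in 72.3%. Of the 13 erythroid genes that varied 4-fold at a mean of at least 10 CPM, 9 had an entry. AGATAA or TGATAA was in 8 of those 9 windows and CACCC in 9 of 9. CANNTG is so common that its 3 matches in each of Dntt and Siglech set these windows apart in nothing. A match is a run of letters and was not tested as a bound site.

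Gene lists of cell types and processes show which lineages the expressed genes point to. In sorted bulk RNA, fewer cells of a type and less RNA per cell cannot be told apart. The early lymphoid list was expressed in full: 20 of 20 members had a mean of at least 10 CPM and 16 of at least 100 CPM, with a median of 39.9 CPM per kilobase. The median over all detected genes was 6.28. Beside Ly6d, Dntt, Flt3 and Il7r, it held Mef2c, a transcription factor of lymphoid fate, at 806 ± 41.5 CPM. It also held Ikzf1 (the Ikaros factor) at 356 CPM, Ccr9, a homing receptor, at 377 CPM, and Kit, the stem cell factor receptor, at 104, 153, 110 and 79.8 CPM. None of the 20 varied 4-fold between libraries, but only 0.584% of all genes at 10 CPM or more did.

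The recombinase genes belong to the same list. Rag1 was at 20.04, 41.8, 42.5 and 15.9 CPM in WT1 to WT4, and Rag2 at 62.9, 96.9, 91.7 and 36.5 CPM. Both were higher in WT2 and WT3 than in WT1 and WT4. Dntt has the same order of pairs.

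Pro-B genes were mostly at lower levels, with a list median of 12.9 CPM per kilobase. All 18 pro-B list members reached 10 CPM and 6 reached 100 CPM. Ighm stood far above the others, at 3353, 2903, 3150 and 4494 CPM. Spib, the next by CPM at 503, is in the plasmacytoid dendritic list too. Genes of the pre-B receptor and its signalling were Cd79a (92.4 CPM), Cd79b (123 CPM), Blnk (346 CPM) and Blk (125 CPM). The commitment factors Ebf1 and Pax5 were at 76.1 ± 17.1 and 26.9 ± 3.58 CPM. The surrogate light chain genes were low: Igll1 at 20.1, 24.1, 27.7 and 12.6 CPM, Vpreb1 at 10.1 CPM and Vpreb2 at 9.85, 15.0, 15.0 and 5.46 CPM. Of 13 mature B genes 7 reached 10 CPM, led by Fcrla at 139 CPM, Tnfrsf13c at 59.1 CPM and Ighd at 49.4 CPM. The complement receptor gene Cr2 was at 0.284 CPM and Ms4a1 (CD20) at 4.74 CPM. Of the 9 plasma cell genes 5 reached 10 CPM. Xbp1, a secretory regulator that other secretory cells use too, was at 542 CPM, Sdc1 at 346 CPM and Txndc5 at 112 CPM. Prdm1, which plasma cell differentiation needs, was at 0.841 CPM and Tnfrsf17 at 0.292 CPM.

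Plasmacytoid dendritic genes were abundant as well. Of 19 members 18 reached 10 CPM and 15 reached 100 CPM, with a median of 54.2 CPM per kilobase. Siglech, a lectin used to identify these cells, was at 1484, 1138, 963 and 2467 CPM in WT1 to WT4. Tcf4 was at 972, 761, 774 and 1173 CPM, and Runx2, a factor for their exit from marrow, at 518 ± 113 CPM. Irf7, the interferon regulator, was at 254, 144, 110 and 310 CPM. Bst2 was at 731, 656, 607 and 1185 CPM. WT4 was highest for each of these genes and for 14 of the 19 members, against 34.1% of all detected genes. Tlr9, the DNA sensor of these cells, was the only member under 10 CPM, at 7.82 CPM, and Tlr7 was at 105 CPM. Irf8, Spib, Ccr9 and others are used by lymphoid or other dendritic cells as well, so the lists overlap: 28 of 399 listed genes are in more than 1 list.

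Conventional dendritic genes were uneven. Of 14 members 9 reached 10 CPM, led by Cst3 (cystatin C) at 508 CPM and Id2, a regulator shared with ILCs, at 187 CPM. The defining factors Zbtb46 and Batf3 were at 2.59 and 1.39 CPM, and the chemokine receptor Xcr1 at 2.23 CPM. Clec9a was at 20.3, 7.37, 5.27 and 22.9 CPM. All 11 MHC class II presentation genes reached 10 CPM, 7 of them 100 CPM. Lysosomal genes were mostly high: 18 of 18 reached 10 CPM and 12 reached 100 CPM. Ctsb (cathepsin B) was at 3061 ± 1082 CPM and Grn (progranulin) at 1264 CPM, and the lowest were Lamp1 at 19.1 CPM and Cd63 at 10.5 CPM.

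Innate lymphoid lists differed in level. Of 12 ILC precursor genes 11 reached 10 CPM. Among them Zbtb16, the PLZF factor of ILC precursors, was at 18.3, 24.99, 33.0 and 16.5 CPM, Tox at 59.1 CPM and Tcf7 at 42.3 CPM. Id2 was at 123, 196, 283 and 145 CPM. Of 18 ILC2 genes 11 did so. Gata3, a regulator of ILC2 and T cells, was at 164, 209, 355 and 193 CPM. Il1rl1, the interleukin 33 receptor, was at 48.1, 84.8, 105 and 37.2 CPM, and Rora at 51.3 CPM. WT3 held the highest value of 10 of the 15 ILC2 genes detected, against 19.7% of all detected genes. Some other lymphoid lists shared this lean. WT3 was highest in 6 of 12 ILC precursor, 6 of 12 NK and ILC1, 8 of 19 T-cell and 9 of 18 pro-B genes detected. Not all did: WT3 was highest in 0 of 11 mature B, 1 of 7 plasma cell and 6 of 20 early lymphoid genes detected. The ILC2 cytokines Il5 and Il13 had means under 1 CPM, though Il13 was at 0.753, 0.403, 1.40 and 1.37 CPM in WT1 to WT4. Il4 and Areg of the same list had means of 2.01 and 1.80 CPM. Of 13 ILC3 genes 5 reached 10 CPM. The ILC3 cytokine genes Il22 and Il17a had at most 0.155 CPM in any library. Of 14 NK and ILC1 genes 6 did so, with Nkg7, a cytotoxic granule protein, at 102 CPM, Eomes, an NK factor, at 1.11 CPM and Ncr1, the NKp46 receptor, at 4.19 CPM. The ILC3 and the NK and ILC1 shares are near the 40.3% of all protein-coding genes.

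Of 20 T-cell genes 11 reached 10 CPM. The most abundant were the kinase gene Lck (243 CPM), Gata3 (230 CPM), Cd4 (112 CPM) and the adaptor gene Lat (97.2 CPM). The CD3 chains Cd3e, Cd3g and Cd3d were at 6.29, 5.84 and 4.39 CPM. The receptor constant regions Trac, Trbc1 and Trbc2 were at 2.86, 30.7 and 22.0 CPM, and Ptcra, the pre-T receptor chain, at 0.796 CPM. Cd4, a surface antigen of helper T cells that mouse plasmacytoid dendritic cells also carry, was at 193, 69.4, 37.6 and 148 CPM.

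Genes of 14 surface antigens that lineage cocktails commonly target were read as a check of the sort. Of these 5 reached 10 CPM, among them Itgax (CD11c) at 119 CPM, Cd4 and Cd5. Cd8a was at 6.93 CPM, Itgam at 5.17 CPM, Siglecf at 2.09 CPM and Ly6g at 0.0113 CPM. The share is near the 40.3% of protein-coding genes at that level.

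Stem and multipotent progenitor genes were mixed. Of 18 members 12 reached 10 CPM, with Cd34 at 314 CPM, Cd48 at 229 CPM and Meis1, a homeobox factor, at 92.9 CPM. Procr and Slamf1, markers of long-term stem cells, were at 0.718 and 0.286 CPM. Proliferation genes were abundant and varied little. All 20 S-phase and all 20 G2 and mitosis genes reached 10 CPM, 17 and 19 of them 100 CPM. The helicase subunit Mcm6 was at 1012, 1131, 1038 and 1025 CPM, and Top2a, a topoisomerase of dividing cells, at 889, 1096, 863 and 807 CPM. None of the 40 varied 2-fold. Few genes of similar level did: 5.04% of all genes at 100 CPM or more and 7.70% between 10 and 100 CPM. Within the 2-fold range WT2 was highest for 17 of the 20 G2 and mitosis genes, against 27.1% of all detected genes. WT4 was lowest for 17, against 28.7%. Their summed levels were 4246, 4836, 4127 and 3678 CPM.

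Immediate early genes, which respond to stimulation and also to cell handling, were high. Of 20 members 17 reached 10 CPM and 12 reached 100 CPM. Fos was at 1347, 1774, 1143 and 1323 CPM and Jun at 1871, 1530, 1370 and 1578 CPM. The part of tissue handling in these levels was not tested.

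Mature myeloid genes were largely at low levels. Of 19 monocyte and macrophage genes 9 reached 10 CPM. Mpeg1, a pore-forming protein that dendritic cells also make, led at 2289 ± 684 CPM. Csf1r, the receptor of monocytes, was at 36.5 CPM. The macrophage genes C1qa, C1qb, C1qc and Adgre1 were at 0.0457, 0.125, 0.0453 and 0.505 CPM. Of 19 neutrophil and granulocyte progenitor genes 4 reached 10 CPM. They were Cybb, a subunit of the phagocyte oxidase that other phagocytes and B cells use (440 CPM), Mpo, the myeloperoxidase of granulocyte-monocyte progenitors (190, 242, 257 and 166 CPM), Csf3r (18.1 CPM) and Prtn3 (11.6 CPM). S100a8 was at 1.53 CPM and Ly6g at 0.0113 CPM. Of 8 eosinophil genes 0 did so, of 13 basophil and mast cell genes 3, of 12 megakaryocyte genes 1 (the integrin gene Itgb3 at 62.5 CPM) and of 16 stroma and endothelium genes 2. Those 2 were Cdh5 (76.2 CPM) and the receptor gene Pdgfrb (28.5 CPM), while Col1a1 and Col3a1 were at 0.0291 and 0 CPM. The mast cell protease genes Cma1, Mcpt4, Tpsab1 and Tpsb2 were at 0 in every library. By the limit of 3 counts that allows up to 0.0438 CPM in WT4 and up to 0.0914 CPM in WT3. Each of these lists apart from monocytes lies below the 40.3% of protein-coding genes at that level, and monocytes (9 of 19) lie near it.

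**Figure D2:**
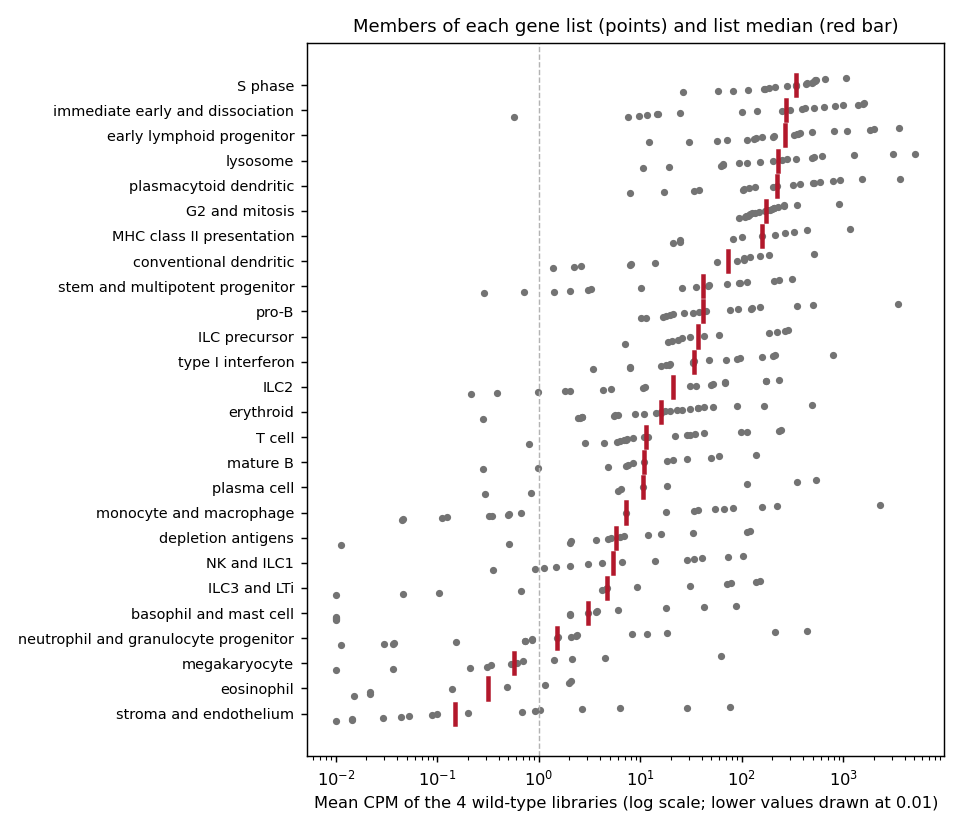
Mean CPM over the 4 wild-type libraries (horizontal, log scale) of each member of 26 gene lists (points), with the list median as a red bar and a dashed line at 1 CPM. S phase, immediate early, early lymphoid, lysosome and plasmacytoid dendritic lists have medians above 200 CPM, and megakaryocyte, eosinophil and stroma lists have medians under 1 CPM.

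Variation between libraries was described by the range, the highest minus the lowest log2 CPM. With 1 group of 4 libraries there is no contrast to test. Over all detected genes the median range was 0.49 and the common biological coefficient of variation 23.9%. The range reached 2 (4-fold) in 301 of 13246 genes, or 2.27%. It did so in 5.95% of genes between 1 and 10 CPM, in 0.721% between 10 and 100 CPM and in 0.235% at 100 CPM or more, so most varying genes were weakly expressed. A 2-fold range was reached by 2159 genes (16.3%). Of the 301, WT1 was highest in 135, where it was highest in 19.1% of all detected genes, and WT4 lowest in 138, where it was lowest in 28.7% of all. Without WT1 the count was 169 and without WT4 it was 191.

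At a mean of at least 10 CPM, 53 of 9075 genes (0.584%) varied 4-fold. Of these 13 are in the erythroid list and 5 are the sex-linked genes. The remaining list members among them number 11, and 24 are in no list. At 100 CPM or more, 6 genes varied 4-fold, named here after their values were seen: Xist, Car2, Cd4, Nr4a1, Myl10 and Marcksl1. Nr4a1, an immediate early nuclear receptor gene, was at 113, 207, 162 and 511 CPM, with WT4 highest. Marcksl1 was at 72.9, 223, 117 and 48.8 CPM, with WT2 highest, and Myl10 at 268, 99.0, 123 and 61.9 CPM, with WT1 highest.

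**Figure D3:**
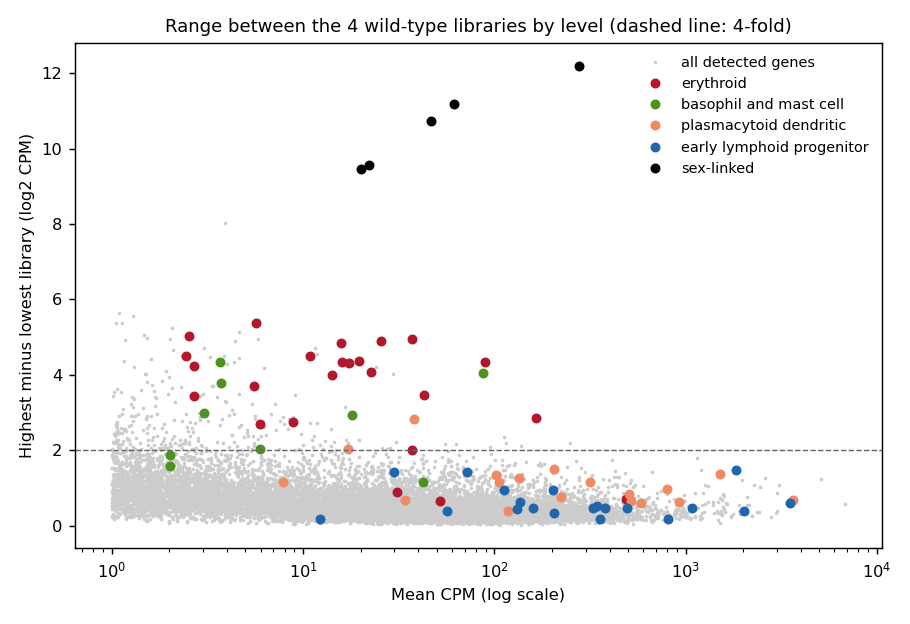
Range between the 4 wild-type libraries in log2 CPM (vertical) against mean CPM (horizontal, log scale) for all genes at 1 CPM or more (grey) and the members of 5 lists (colours), with a dashed line at 4-fold. The sex-linked genes lie above 9, most erythroid genes between 2 and 5.4, and the early lymphoid genes all under 1.5.

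Erythroid genes were the group that differed most among libraries apart from the sex-linked genes. Of the 24 members detected, 21 varied 4-fold, beside 2.27% of all detected genes. Slc4a1, the red-cell anion exchanger band 3, was at 78.7, 16.6, 4.08 and 2.57 CPM in WT1 to WT4. Klf1 was at 40.1, 17.4, 4.84 and 1.91 CPM. Car1, a carbonic anhydrase of erythroid progenitors, was at 73.5, 62.4, 9.69 and 2.31 CPM. WT1 was highest in each and WT4 lowest. WT2 lay near WT1 for Car1 and well below it for Slc4a1.

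The haemoglobin genes had another order at the low end. Hbb-bs, an adult beta globin, was at 244, 78.5, 12.1 and 23.1 CPM, so that WT3 was lowest. Hba-a1, an alpha globin, was at 115, 32.6, 10.3 and 12.97 CPM. Hba-a1 and Hba-a2 are near-identical copies, as Hbb-bs and Hbb-bt are close ones, and the levels of all 4 are uncertain. The RSEM estimates were 208 CPM for Hbb-bs and 202 CPM for Hba-a2, against 89.5 and 17.4 CPM by counts, with WT1 highest and WT3 lowest in both.

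Rhag was at 29.5, 8.64, 3.84 and 1.25 CPM and Ermap at 46.6, 23.3, 6.58 and 2.22 CPM. Gata1 was at 18.5, 10.5, 3.78 and 2.70 CPM, and Epor, the erythropoietin receptor, at 5.97, 3.88, 0.609 and 0.263 CPM. The median member was 2.07 above its 4-library mean in WT1 on the log2 CPM scale, 0.62 above in WT2, and stood at -0.85 in WT3 and -1.60 in WT4. WT1 was the highest library for 22 of 24, against 19.1% of all detected genes. The 3 members that did not reach 4-fold were Tfrc, the transferrin receptor that dividing cells use generally, Blvrb and Nfe2. Tfrc was at 395, 467, 457 and 643 CPM. Without WT1 15 of 24 members varied 4-fold, and without WT4 19 did.

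In summed level the erythroid list held 1815, 1079, 742 and 857 CPM. By counts Tfrc was the largest single part in every library. By RSEM Tfrc was at 329 CPM in WT1, below Hbb-bs (558 CPM), Hba-a2 (556 CPM) and Hba-a1 (428 CPM). Among erythroid-list genes with a mean under 10 CPM, Sptb (a red-cell spectrin) was at 16.8, 4.03, 1.49 and 0.350 CPM. Alas2 (an erythroid enzyme of haem synthesis), also of that list, was at 14.7, 4.67, 2.35 and 2.20 CPM. Among varying genes of no list, Aqp1, the water channel of red cells, was at 70.7, 32.5, 10.4 and 4.26 CPM and Ces2g at 25.8, 17.3, 3.29 and 1.05 CPM. Hspa1a, an inducible heat shock gene, was at 37.1, 6.16, 1.37 and 1.58 CPM. It was highest in WT1 too. It has a near-identical copy, Hspa1b, and RSEM gave 39.9 CPM for Hspa1a against 11.6 CPM by counts. The part of erythroid cells in these differences was not tested.

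Basophil and mast cell genes ran the other way. Prss34, a basophil protease also called mMCP-11, was at 13.6, 16.8, 93.8 and 224 CPM, and Mcpt8, the basophil protease mMCP-8, at 5.04, 4.84, 24.6 and 37.2 CPM. Fcer1a, the IgE receptor alpha chain, was at 0.405, 0.775, 4.14 and 9.35 CPM. Each was higher in both WT3 and WT4 than in WT1 or WT2. Of the 9 members detected 6 varied 4-fold, and 4 did without WT1 or without WT4. The median member stood at -1.27, -0.38, 1.001 and 1.55 on the log2 CPM scale relative to its mean. Cpa3, a mast cell and progenitor protease gene, was at 29.9, 39.5, 66.2 and 33.6 CPM, highest in WT3. Summed levels were 54.6, 71.6, 210 and 335 CPM, and the 4 mast cell protease genes were at 0 throughout. Prg2, an eosinophil granule gene that basophils also make, was at 0.463, 0.279, 3.41 and 3.72 CPM, while the eosinophil genes Epx, Ear1 and Ear2 were near 0.

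**Figure D4:**
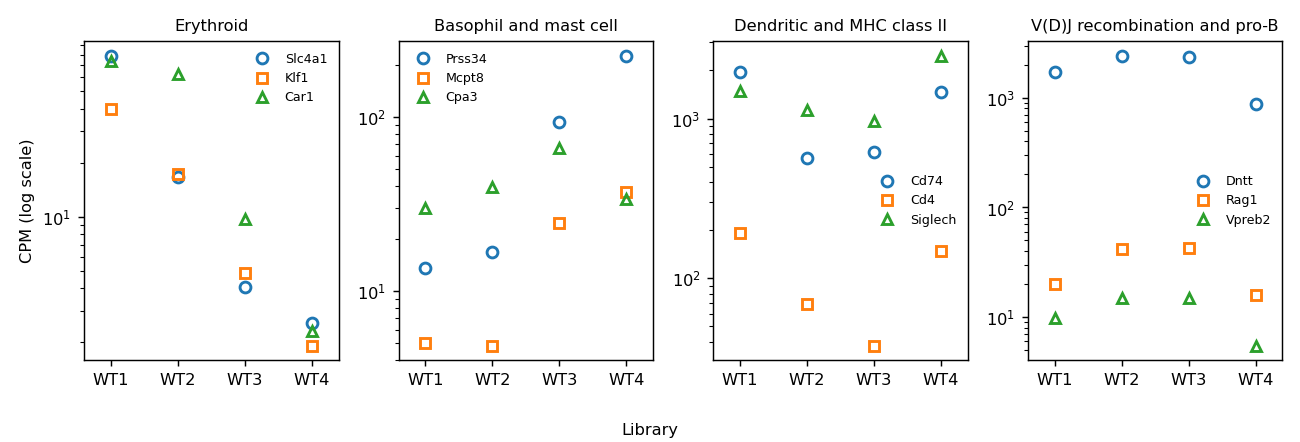
CPM (vertical, log scale, a separate scale in each panel) of 12 genes in the 4 libraries (horizontal), 1 point per library. Slc4a1, Klf1 and Car1 are highest in WT1, Prss34 and Mcpt8 in WT4, Cd74 and Cd4 lie higher in WT1 and WT4 than in WT2 and WT3, and Dntt, Rag1 and Vpreb2 are the reverse.

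Another pattern paired WT1 with WT4. It was noticed in the data, and all 6 ways to set 2 libraries above the other 2 were then counted over the 9075 genes at 10 CPM or more, requiring at least 1.5-fold. WT1 and WT4 lay above the others in 131 genes (1.44%), WT1 and WT2 in 73 (0.804%), WT2 and WT3 in 62 (0.683%), WT3 and WT4 in 12 (0.132%), WT2 and WT4 in 10 (0.11%) and WT1 and WT3 in 0. These counts are descriptions.

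MHC class II genes stood out by number in the pattern of WT1 with WT4. Cd74 was at 1960, 564, 617 and 1462 CPM in WT1 to WT4, and H2-Ab1, a class II beta chain, at 453, 137, 158 and 322 CPM. H2-Aa was at 347, 130, 120 and 243 CPM. Of the 11 members, 5 were 1.5-fold or more above in WT1 and WT4. In 10 of 11 these were the 2 highest libraries, beside 21.3% of all detected genes. H2-Ob, an inhibitor of class II peptide loading, was the exception, at 114, 164, 179 and 170 CPM. None of the 11 varied 4-fold, as was so for nearly all genes at 10 CPM or more (0.584% did).

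Plasmacytoid dendritic genes had WT1 and WT4 as their 2 highest libraries in 15 of 19 members. The largest range was that of Klk1, a kallikrein, at 79.5, 16.5, 11.2 and 44.0 CPM. Cd209d was at 31.0, 7.49, 9.503 and 21.1 CPM. Type I interferon genes did so in 15 of 18, with Usp18 at 107, 59.4, 53.2 and 161 CPM. Lysosomal genes did so in 14 of 18, with Psap at 5475, 3355, 3818 and 7868 CPM. Mature B genes did so in 9 of 11. Cd22, a B-cell lectin, was at 29.6, 18.5, 17.9 and 48.2 CPM. Fyb2 and Ly6k, in no list, were at 54.7, 5.57, 2.92 and 33.1 CPM and at 19.0, 2.85, 3.81 and 17.8 CPM. The plasmacytoid dendritic list summed to 10078, 8479, 8013 and 14009 CPM.

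WT1 and WT4 are also the libraries with Xist. In total counts WT4 was the highest of the 4 and WT1 the third. The part of sex and of depth in this pairing was not tested, and in 4 libraries the sex-linked difference and any other difference between these pairs cannot be told apart.

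The reverse pairing, WT2 and WT3 above, held 0.683% of all genes at 10 CPM or more and few members of most lists. The list members were Rag1 (1 of 20 early lymphoid), Vpreb1 and Vpreb2 (2 of 18 pro-B), and the T-lineage genes Bcl11b and Cd247 (2 of 11). Icos and Il1rl1 (2 of 11 ILC2), the immediate early gene Ier2 (1 of 17) and the 4 Y-linked genes completed them. Ier2 was at 171, 454, 349 and 214 CPM. Bcl11b was at 6.20, 13.1, 17.1 and 7.49 CPM. In 9 of 20 early lymphoid genes WT2 and WT3 were the 2 highest libraries, beside 20.5% of all detected genes. Of 18 pro-B genes WT2 and WT3 were the 2 highest in 6, and WT1 and WT4 in 7. Over genes at 10 CPM or more WT2 and WT3 had the fewest genes 2-fold apart, 0.529%, and WT2 and WT4 the most, 4.39%. By the median absolute log2 difference WT1 and WT2 were closest, at 0.16 against 0.17 for WT2 and WT3.

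**Figure D5:**
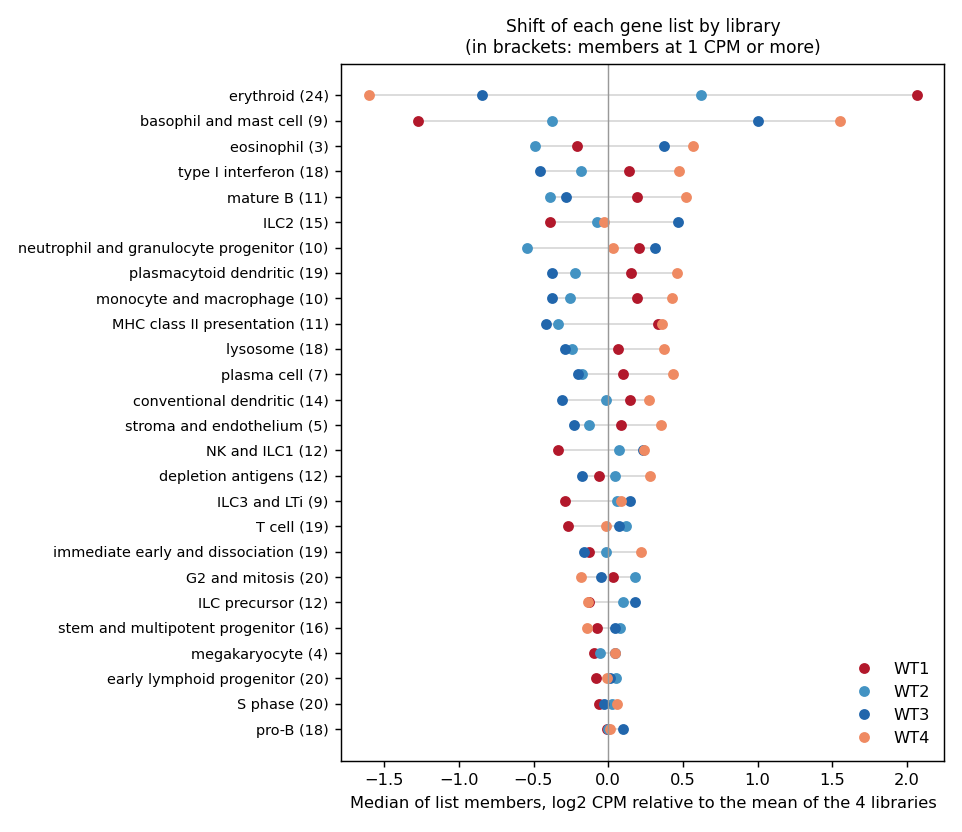
Median over list members of log2 CPM relative to the mean of the 4 libraries (horizontal) for 26 gene lists, 1 coloured point per library, lists ordered by the spread of their points. The erythroid list spreads from -1.60 in WT4 to 2.07 in WT1 and the basophil and mast cell list from -1.27 in WT1 to 1.55 in WT4, and the pro-B, S phase and early lymphoid lists spread by 0.10 to 0.13.

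At the even end were the genes with the smallest spread at 100 CPM or more. Sumo2, a ubiquitin-like modifier, was at 108, 107, 108 and 108 CPM. The tRNA synthetase gene Gars was at 138, 137, 138 and 136 CPM, and Rbbp7, a histone-binding protein gene, at 532, 530, 539 and 527 CPM. The others of the 10 were Pebp1, Cpsf3, Kars, Rnmt, Ap1m1, Psmc6 and Sf3b2. By RSEM Sumo2 was at 518 CPM and Pebp1 at 226 CPM, against 108 and 124 CPM by counts.

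Some levels depend on how reads were assigned. Comparing CPM from counts with CPM from the RSEM estimates, 1485 of 14255 genes were at least 2-fold higher by RSEM and 228 lower. Of 338 list members in that comparison 11 were higher and 0 lower. Fen1, a replication nuclease, was at 26.1 CPM by counts and 366 CPM by RSEM, and Mzb1, a chaperone of secretory B-lineage and plasmacytoid dendritic cells, at 10.7 and 63.7 CPM. Itgam, the CD11b chain, was at 5.17 and 18.2 CPM. Ptprcap, a CD45-associated protein gene, was at 0 in every library by counts and at 355, 392, 432 and 466 CPM by RSEM. The mitochondrial gene mt-Co2 was at 1.44 and 1379 CPM. Ptprcap and mt-Co2 were named after their values were seen, and the cause of these gaps was not tested. The low mitochondrial share given above is that of the counts.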

How the data were processed

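The authors deposited whole-number counts of reads, 1 table for each library, made with featureCounts 1.6.4 per the file headers, with an annotation, an output name and 4 threads as the only settings shown. They also deposited RSEM 1.3.1 expected counts (estimates that need not be whole) and TPM per gene for each library. The submitters' processing notes name STAR 2.6.0a, Picard 2.19 and build mm10, but the headers of the count tables point to a GRCm39 annotation. Libraries were made from 200 ng of total RNA with a low-input kit, per the labels' protocols. Reads of both strands were taken as counted together, since no strand setting is shown, so overlapping and antisense genes cannot be told apart.

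Counts of the 4 wild-type libraries were scaled by TMM in edgeR 4.0.16 (R 4.3.3, Python 3.11.15, pandas 2.3.3). Log2 CPM used a prior count of 3, and the dispersion came from an intercept-only fit. CPM per kilobase used the length in the count files. 1 CPM was worth 32.8 to 68.5 counts. Gene symbols matched 52093 of 53647 identifiers, and types came from GENCODE M21 by identifier. Of 399 genes in 27 lists 398 were found (not Ahsp). Expected counts were rounded to whole numbers for an alternative, and RSEM was compared with counts after adding 0.1 CPM. The knockout libraries entered only 1 alternative, TMM over all 8 libraries. No comparison between groups was made, and the only test was Dixon's ratio for a distant library (critical value 0.829).

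The members and lists were chosen with earlier results of these data known. Genes named are the 5 markers of the sorted cells and the 25 leading protein-coding genes per kilobase. From each list they are the 4 most abundant members and the most varying member. The 25 most varying at 10 CPM or more, the 10 steadiest at 100 CPM or more and the sex-linked genes were added. Mitochondrial, ribosomal protein, Gm and Rik genes were left out. Other list members are named for their role after their values were seen. The steps were tested on simulated data. Some genes that the rule names are not reported here.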

Additional observations from a re-analysis of the deposited data

Results flagged for a closer look

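Of 194 values tested (166 genes and 28 list sums), 7 had 1 library far from the other 3, as its gap to the nearest library made up most of the range. That is 3.61%, under the 1 in 20 that chance gives, so the values are given as a description. By RSEM 3 of the 7 were still past the threshold (Hspa1a, Lgals1 and Tmsb4x), an alternative added after seeing the data, and Ptma was then at 3832 CPM in WT1 and 3901 CPM in WT4. WT4 was the high library for Cst3 (739 CPM, next 466), Lgals1 (1302 CPM, next 880), Sdc1 (460 CPM, next 317) and Tmsb4x (2436 CPM, next 1997). WT1 was the high library for Hspa1a (37.1 CPM, next 6.16) and for the neutrophil granule gene Ngp (6.37 CPM, next 1.16), and the low one for Ptma (1971 CPM, next 2319).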

How the results depend on the processing

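Scaling by RLE factors, by library size alone or by TMM over all 8 libraries moved none of the summary counts by over 1.5 times. Genes detected ran from 12342 (at least 1 CPM in every library) to 13764 (RSEM expected counts), and the coefficient of variation from 19.1% to 30.9%. The number of genes varying 4-fold followed the threshold: 2159 at 2-fold, 94 at 8-fold, 53 at a mean of at least 10 CPM and 2286 with no filter on low counts. Leaving out 1 library gave 169 to 241, the lowest without WT1, and 191 without WT4. Of the 25 leading genes per kilobase, 13 led without the length and 15 by RSEM TPM. Lists with more than 50% of members at 10 CPM numbered 16 to 19 of 28, and lists with a median shift of at least 1 on the log2 scale 3 to 6. Of 1328 alternative gene means 59 moved by over 1 SD, 40 of them under RSEM. A mean without 1 of the 4 libraries cannot move by 1 SD through that library's value alone, only through changed scaling. The low number moved among those means therefore says little about dependence on any 1 library. Of the list medians 9 of 224 moved, and of the list ranges 20 of 224. The counts of members past 4-fold under each setting were added after seeing the data. No paired analysis was possible because only 1 group is described. Depth limits genes under about 1 CPM, where a count of 0 allows 0.0438 to 0.0914 CPM, or more if 1 fragment gave more than 1 count.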
